A study of Mus musculus with 12 samples.

Results

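Growth hormone signalling in mouse liver was followed through 10 genes, Ghr, Stat5a, Stat5b, Igf1, Igfals, Socs2, Cish, Bcl6, Cux2 and Prlr. They were found as the probes of the array files that carry one of these gene names, which gave 20 probes of 55681 and 10 genes of 36095 gene names. The measurements came from whole livers of BALB/c mice in 4 groups of 3 arrays each: Il18 knockout at 12 weeks of age, wild type at 12 weeks, Il18 knockout at 6 weeks and wild type at 6 weeks. The labels record no treatment and do not describe how the knockout was made. They call the arrays of a group biological replicates, and record no sex and no hour of collection.

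Growth hormone binds its receptor on hepatocytes, which activates the kinase JAK2. JAK2 phosphorylates STAT5 proteins, and these enter the nucleus and switch on genes such as Igf1, Igfals, Socs2 and Cish, of which the last pair encode inhibitors that damp the same signal. In mice the pituitary releases the hormone in pulses in males and more continuously in females, and hepatic STAT5 with the repressors BCL6 and CUX2 sets much of the sex-biased gene expression of liver.

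At 6 weeks, 2 of the 10 genes, Ghr and Stat5b, were higher in the knockout than in the wild type. Each was so with both of its probes and by about the same factor (1.30-fold to 1.38-fold). Of all tested genes 20.3% were called, and 11.7% as higher. Shares of all genes called, here and below, are of the 22131 genes tested by their brightest probe. At that age the genotypes lay on different slides and the slide cannot be told apart from the genotype. With slide as a fixed block none of these 4 probe calls held (adjusted p = 0.0691 to 0.404), and with slide as a random block Ghr kept both of its calls and Stat5b lost both (adjusted p = 0.125 and 0.0948). At 12 weeks 0 of the 10 passed between the genotypes by their brightest probe in limma, against 7.56% of all genes, and 3 had an unadjusted p under 0.05. With age, 1 of 10, Bcl6, was higher in the 12-week than in the 6-week wild type, against 8.54% of genes called (4.41% as higher), and this call did not hold with slide as a fixed block (adjusted p = 0.118). In the knockout 1 of 10, Prlr, was lower at 12 than at 6 weeks, against 6.52% of genes called (2.79% as lower). Igfals, Cish, Socs2, Cux2 and Stat5a passed in no comparison, and Igf1 passed only by probes other than its brightest.

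Levels are given as log2 of the scanner's processed signal minus the 75th percentile of that array, so that a difference of 1 is a factor of 2. A level of one probe cannot be set against that of another. Of the 20 probes, 19 passed the brightness filter (signal well above background throughout 1 or more groups) and were tested with limma over all 29807 such probes, and a gene was called by its brightest tested probe at an adjusted p under 0.05. The p-values measure the spread between these livers, and the number of arrays limits the precision. In whole liver RNA, fewer cells of a type and less RNA per cell cannot be told apart.

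Il18 itself averaged -0.03 in the 12-week knockout and 2.30 in the 12-week wild type, and -0.13 in the 6-week knockout and 2.40 in the 6-week wild type. The differences were -2.33 and -2.53, with every knockout array below every wild type array, although its signal in the knockout still exceeded background. The 75th percentile of the signal was 347 to 420 scanner units, and 50.1% to 57.7% of spots were well above background. Per the file headers the arrays lay on 2 slides: slide 1 carried all 3 arrays of 6-week wild type livers plus 1 of 12-week wild type, replicate 1, and slide 2 the other 8. At 6 weeks slide and genotype separate the same arrays and cannot be told apart within that age, so a fit with slide as a fixed block rests there on 1 array, replicate 1 of the 12-week wild type. The knockout arrays of both ages lay on slide 2. In the wild type, replicates 2 and 3 of 12 weeks were on slide 2 and all 6-week arrays on slide 1. Slide and age are thus largely mixed in every wild type age difference below. The Y-linked genes Ddx3y and Eif2s3y were well above background on all 12 arrays, and 2 probes of Xist, the RNA of the inactive X chromosome, on 0 arrays. Of 2 Uty probes the brighter was so on all 12 arrays, and the probe of Kdm5d on 0.

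**Figure D1:**
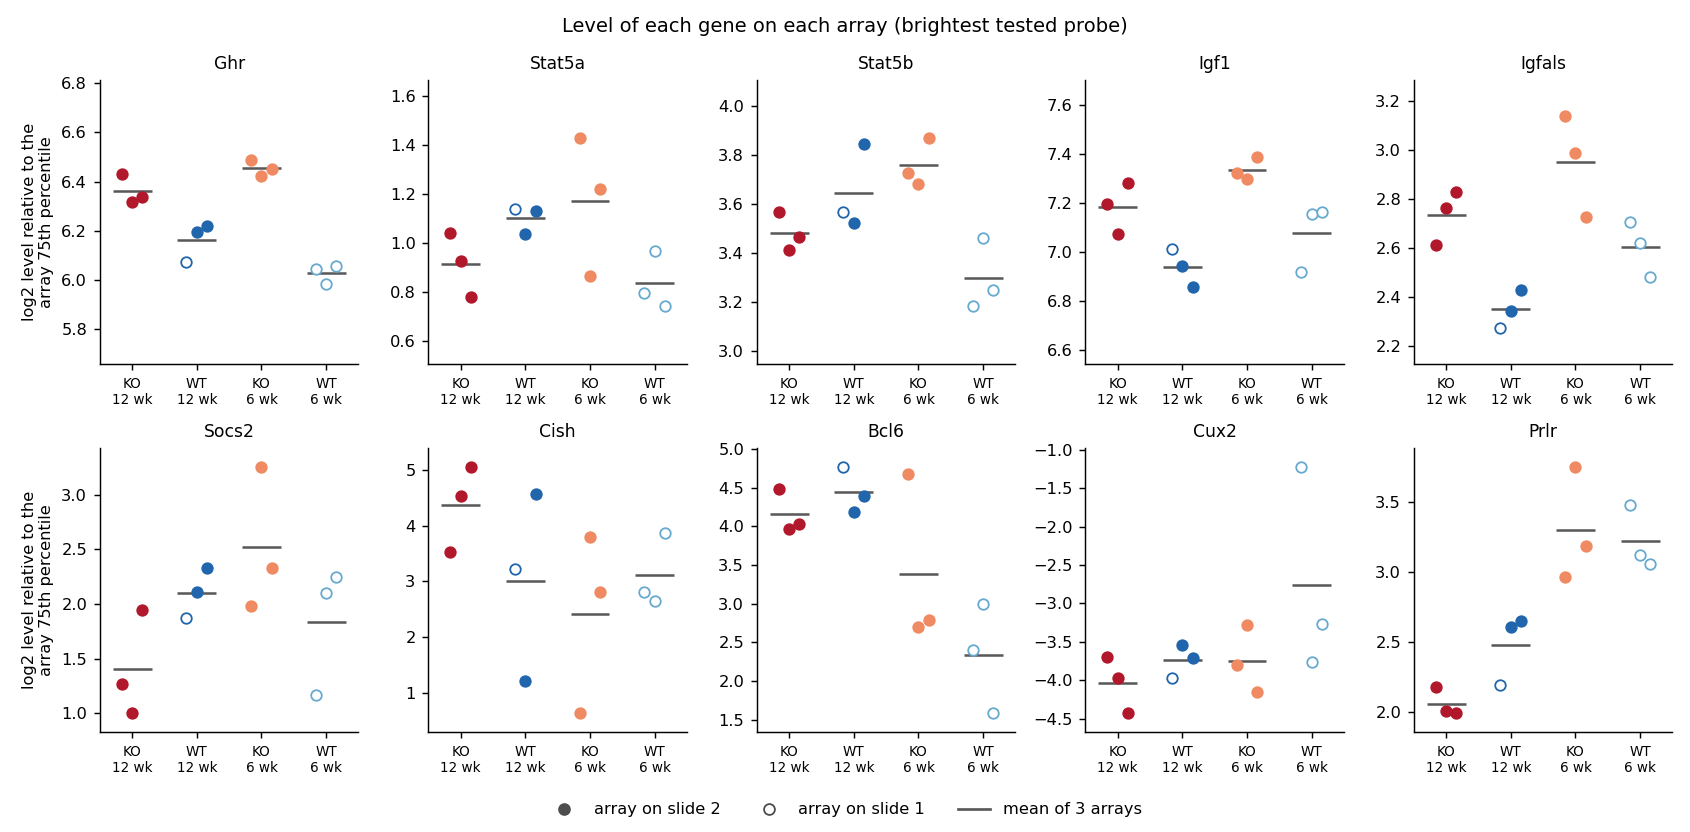
Log2 level of the brightest tested probe of each gene (vertical axes, each with its own range) on each array, by group (horizontal axes). Points are arrays, open for slide 1 and filled for slide 2, and lines are means of 3 arrays. The Ghr arrays of the 6-week knockout, 6.42 to 6.49, all lie above those of the 6-week wild type, 5.98 to 6.06, whereas the Cish arrays of the 6-week knockout run from 0.64 to 3.80 and overlap those of the 6-week wild type, 2.66 to 3.88.

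Ghr encodes the growth hormone receptor, and in mice alternative splicing of it also yields a soluble binding protein. Its brightest probe, at chr15:3277543-3277602 on mm9, measured 6.49, 6.42 and 6.45 in the 6-week knockout, against 6.04, 5.98 and 6.06 in the 6-week wild type. The arrays of a group lay close together and the groups did not overlap. The difference was 0.43 ± 0.07 (SE, n = 3 per group, adjusted p = 0.00344), a 1.34-fold higher level. The second probe, 9.436 kb lower on the chromosome and assigned by the array to another transcript of the gene, gave 6.01, 6.07 and 6.06 in the 6-week knockout, against 5.60, 5.62 and 5.63 in the 6-week wild type. It was higher by 0.43 ± 0.06 (adjusted p = 0.00148), the same size as by the brightest probe. With slide as a fixed block the differences were 0.29 (adjusted p = 0.209) and 0.41 (adjusted p = 0.0691). With slide as a random block they kept their calls, at adjusted p = 0.0357 and 0.0126.

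At 12 weeks the brightest Ghr probe measured 6.43, 6.31 and 6.34 in the knockout and 6.07, 6.19 and 6.22 in the wild type. The groups did not overlap, and the difference of 0.20 ± 0.07 missed the threshold (adjusted p = 0.116). The second probe measured 5.81 to 5.84 in the knockout and 5.78 to 5.80 in the wild type, with a difference of 0.04 whose 95% confidence interval ran from -0.10 to 0.17. For that probe the genotype difference at 12 weeks minus the one at 6 weeks was -0.39 ± 0.08 (adjusted p = 0.0173, and 0.0501 with slide as a fixed block). For the brightest probe it was -0.23 (adjusted p = 0.185). The order of group means was the same for both probes: 6-week knockout, 12-week knockout, 12-week wild type, 6-week wild type. Between neighbours in that order no difference of the brightest probe was called. The pooled standard deviation within groups was 0.06 for the brightest probe, and 2% of the tested probes had a lower one.

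Prlr encodes the prolactin receptor, which belongs to the same cytokine receptor family, also signals through STAT5 and has female-biased expression in mouse liver. Its brightest probe, at chr15:10259066-10259125 on mm9, measured 2.18, 2.01 and 2.0 in the 12-week knockout, against 2.97, 3.75 and 3.18 in the 6-week knockout. All 12-week arrays lay below all 6-week arrays. Prlr fell by 1.24 ± 0.20 on the log2 scale (SE, n = 3 per group, adjusted p = 0.00745), a 2.36-fold lower level at 12 weeks. All 6 arrays of this comparison were on slide 2, and a fit to these arrays alone gave an adjusted p of 0.0192. Leaving out each array in turn gave -1.40 to -1.01 and kept the call each time.

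In the wild type the same Prlr probe measured 2.19, 2.61 and 2.65 at 12 weeks, against 3.48, 3.12 and 3.05 at 6 weeks. The groups did not overlap, and the difference of -0.74 ± 0.20 lay just outside the threshold (adjusted p = 0.0515). The second Prlr probe, 3.437 kb lower on the chromosome, measured 1.20, 1.41 and 1.80 in the 12-week wild type, against 2.68, 2.42 and 2.56 in the 6-week wild type. By that probe Prlr fell by 1.09 ± 0.15 in the wild type (adjusted p = 0.00288, and 0.00658 with slide as a fixed block) and by 0.65 ± 0.15 in the knockout (adjusted p = 0.0297). The knockout call of this probe missed the threshold without replicate 1 or 2 of 6 weeks or any array of 12 weeks (adjusted p = 0.0539 to 0.104). Both probes thus had lower means at 12 weeks in both genotypes. The age difference of the knockout minus that of the wild type had opposite signs, -0.50 for the brightest probe and 0.44 for the second. By limma it passed for neither (adjusted p = 0.313 and 0.227). The probes gave different signs between genotypes at 6 weeks: the brightest gave a knockout minus wild type difference of 0.08 and the second -0.42 (adjusted p = 0.808 and 0.0719).

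Stat5b encodes the STAT5 protein that carries most of the growth hormone response in liver. Its brightest probe, at chr11:100642045-100642104 on mm9, measured 3.73, 3.68 and 3.87 in the 6-week knockout, against 3.18, 3.46 and 3.25 in the 6-week wild type. The groups did not overlap. Stat5b was 1.38-fold higher in the knockout, by 0.46 ± 0.11 (SE, n = 3 per group, adjusted p = 0.0174). The second probe, 0.142 kb away, measured 2.96, 2.83 and 3.06 in the 6-week knockout, against 2.52, 2.72 and 2.50 in the 6-week wild type, a difference of 0.37 ± 0.10 (adjusted p = 0.0235). Neither call held with slide as a block. As a fixed block the differences were 0.35 and 0.46 (adjusted p = 0.404 and 0.204), and as a random block 0.42 and 0.40 (adjusted p = 0.125 and 0.0948). The brightest probe also missed the threshold without replicate 1 or 3 of the 6-week wild type or replicate 3 of the 6-week knockout (adjusted p = 0.0599, 0.0566 and 0.0589), and the second without replicate 1 or 3 of either group (0.063 to 0.0773).

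At 12 weeks the Stat5b means stood in the opposite order, lower in the knockout. The brightest probe measured 3.57, 3.41 and 3.47 in the knockout and 3.57, 3.52 and 3.84 in the wild type, which overlapped. The second probe measured 2.65, 2.64 and 2.51 in the knockout and 2.91, 2.73 and 2.92 in the wild type, which did not. The differences of -0.16 and -0.25 were not called (adjusted p = 0.405 and 0.139). The change of the genotype difference between the ages was -0.62 ± 0.16 for the brightest probe (adjusted p = 0.0321) and -0.63 ± 0.14 for the second (adjusted p = 0.0181). With slide as a fixed block these were -0.55 (adjusted p = 0.126) and -0.68 (adjusted p = 0.0447). The second probe kept this call without any one array. The brightest lost it, with adjusted p from 0.0512 to 0.0769, without replicate 1 or 3 of the 6-week wild type, any array of the 6-week knockout, or replicate 2 or 3 of the 12-week knockout.

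Stat5a encodes the closely related STAT5 protein known chiefly from mammary gland, and was measured with 1 probe. It gave 1.43, 0.87 and 1.22 in the 6-week knockout, against 0.80, 0.97 and 0.75 in the 6-week wild type. Replicate 2 of the knockout lay within the wild type range. The difference of 0.34 ± 0.14 was not called (adjusted p = 0.104), and without that array it was 0.49 with an adjusted p of 0.0269. At 12 weeks the knockout gave 1.04, 0.93 and 0.78 and the wild type 1.14, 1.04 and 1.13, a difference of -0.19 that was not called either.

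**Figure D2:**
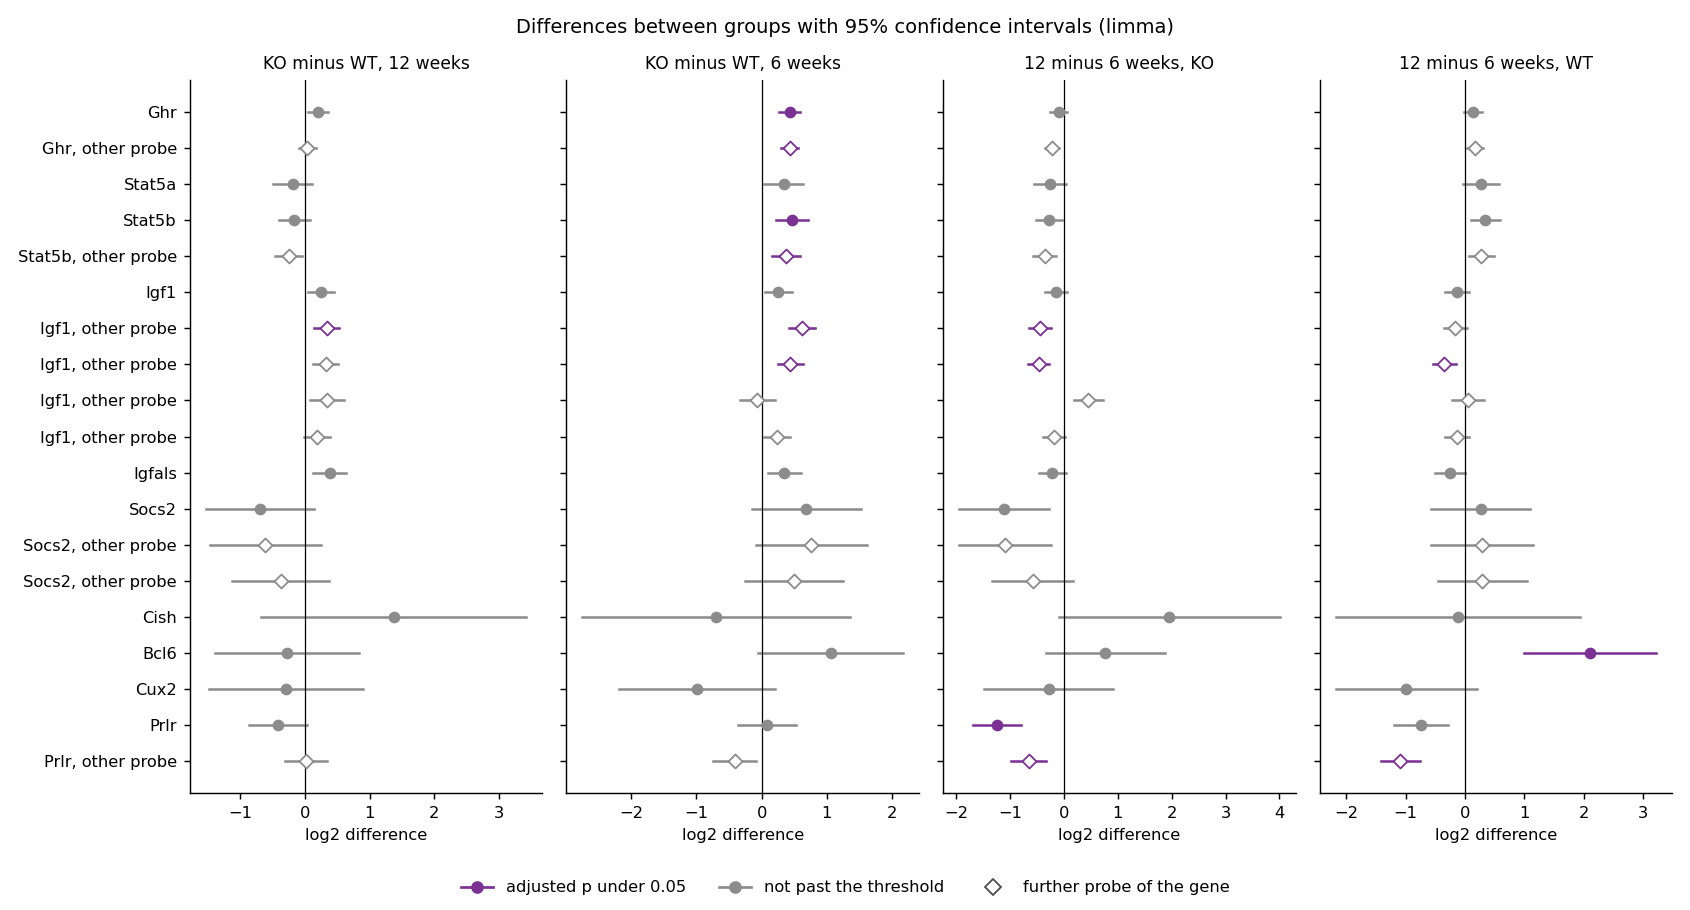
Log2 differences of every tested probe (rows) in 4 comparisons (panels), with 95% confidence intervals from limma; circles are the brightest probe of a gene and open diamonds its other probes, purple where the adjusted p is under 0.05. Both probes of Ghr and of Stat5b lie to the right of 0 in the knockout minus wild type panel of 6 weeks, the probes of Prlr lie to the left of 0 in both age panels, and the interval of Cish spans more than 4 log2 units.

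Igf1 encodes insulin-like growth factor 1, the circulating growth factor that liver releases in response to growth hormone, and Igfals encodes the acid-labile subunit that holds it in a long-lived serum complex. The brightest Igf1 probe, at chr10:87393581-87393640 on mm9, measured 7.32, 7.30 and 7.39 in the 6-week knockout, against 6.92, 7.15 and 7.16 in the 6-week wild type. At 12 weeks it measured 7.20, 7.07 and 7.28 in the knockout, against 7.01, 6.94 and 6.86 in the wild type. Knockout arrays lay above wild type arrays at both ages, by 0.26 ± 0.09 at 6 weeks and 0.25 ± 0.09 at 12 weeks, and neither difference was called (adjusted p = 0.0713 and 0.131). A second probe that overlaps it gave 0.23 and 0.19.

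Of the other Igf1 probes, 2 further along the gene did pass. The probe 2.343 kb higher on the chromosome measured 2.08, 2.10 and 2.02 in the 6-week knockout, against 1.47, 1.41 and 1.48 in the 6-week wild type. It was 1.53-fold higher in the knockout (0.62 ± 0.09, adjusted p = 0.00176, and 0.72 with adjusted p = 0.0479 under slide as a fixed block). At 12 weeks it measured 1.51, 1.62 and 1.75 in the knockout, against 1.36, 1.36 and 1.14 in the wild type, where the difference of 0.33 ± 0.09 passed narrowly (adjusted p = 0.0484) and within slide 2 did not (0.37, adjusted p = 0.113). Leaving out any of the 12 arrays ended that call, with adjusted p values from 0.0604 to 0.157.

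The probe 6 kb higher measured 5.59, 5.73 and 5.73 in the 6-week knockout, against 5.22, 5.30 and 5.22 in the 6-week wild type, a difference of 0.44 ± 0.09 (adjusted p = 0.00813, and 0.187 with slide as a fixed block). With age this probe fell by 0.47 in the knockout (adjusted p = 0.013) and by 0.35 in the wild type (adjusted p = 0.0362, and 0.17 with slide as a fixed block). The probe 2.343 kb higher fell by 0.44 with age in the knockout (adjusted p = 0.0175). None of these age calls held under the omission of each array in turn. In the knockout the 6 kb probe missed the threshold without replicate 2 of either age (adjusted p = 0.0526 and 0.0575), and the 2.343 kb probe without replicate 1 or 2 of either age (adjusted p = 0.0557 to 0.0638). In the wild type 8 of the 12 arrays ended the call of the 6 kb probe when left out, with adjusted p up to 0.116.

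A further Igf1 probe, 15.12 kb lower on the chromosome and assigned by the array to another transcript, had the opposite sign with age in the knockout. It measured 3.03, 3.16 and 2.91 in the 12-week knockout, against 2.53, 2.55 and 2.65 in the 6-week knockout. All 12-week arrays lay above all 6-week arrays, whereas the other 4 Igf1 probes were lower at 12 weeks in the knockout. The difference of 0.46 ± 0.12 missed the threshold (adjusted p = 0.053) and passed in a fit to slide 2 alone (adjusted p = 0.048). At 6 weeks this probe had a knockout minus wild type difference of -0.07 (adjusted p = 0.71). Whether the Igf1 probes differ from each other was not tested.

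**Figure D3:**
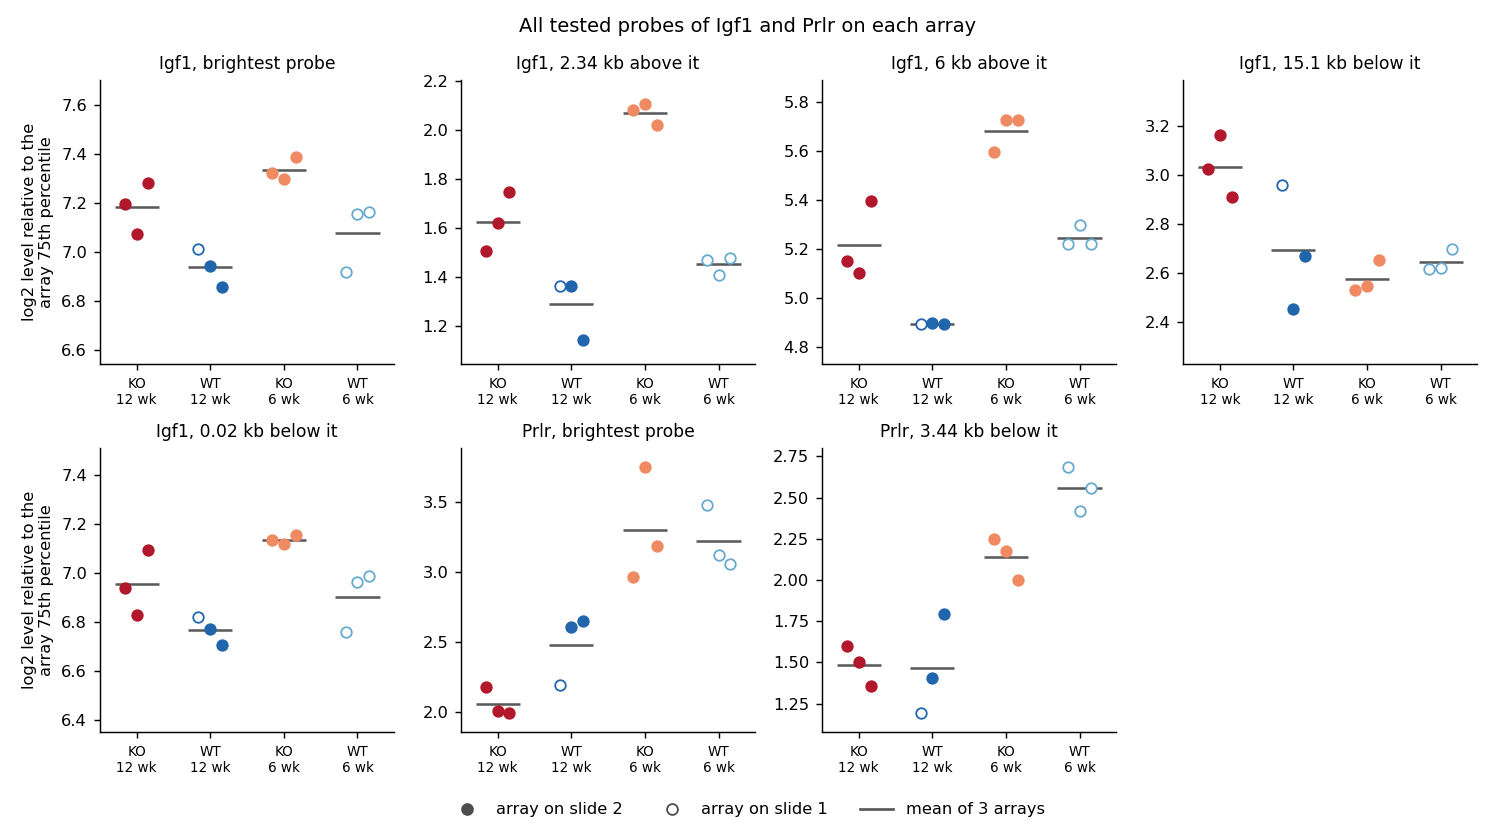
Log2 level on each array (vertical axes) by group for the 5 tested probes of Igf1 and the 2 of Prlr; distances are positions along the chromosome above or below the brightest probe of the gene, open points are arrays on slide 1 and lines are means of 3 arrays. The Igf1 probe 15.1 kb below the brightest is highest in the 12-week knockout, and the 4 other Igf1 probes are highest in the 6-week knockout.

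Igfals, with 1 probe, measured 3.14, 2.99 and 2.73 in the 6-week knockout, against 2.71, 2.62 and 2.48 in the 6-week wild type. At 12 weeks it measured 2.62, 2.77 and 2.83 in the knockout, against 2.28, 2.35 and 2.43 in the wild type. The genotypes did not overlap at either age. The differences of 0.35 ± 0.11 and 0.39 ± 0.11 both missed the threshold (adjusted p = 0.0558 and 0.0686). Without replicate 3 of the 6-week knockout both passed (adjusted p = 0.0249 and 0.0483).

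Socs2 and Cish encode SH2-domain proteins that are transcribed in response to STAT5 and inhibit signalling at the receptor. The brightest Socs2 probe measured 1.27, 1.01 and 1.94 in the 12-week knockout, 1.87, 2.11 and 2.33 in the 12-week wild type, 1.98, 3.25 and 2.32 in the 6-week knockout, and 1.17, 2.10 and 2.24 in the 6-week wild type. Livers of one group differed by up to 1.27 log2 units. Against the wild type the knockout gave -0.70 ± 0.38 at 12 weeks and 0.68 ± 0.38 at 6 weeks (adjusted p = 0.289 and 0.219). Between the ages the knockout gave -1.11 ± 0.38 (adjusted p = 0.115), with every 12-week array below every 6-week array. The other 2 Socs2 probes had differences of the same signs in these 3 comparisons and were not called.

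Cish, on chromosome 9 at 56.8 Mb from Il18, varied most. It measured 3.53, 4.53 and 5.05 in the 12-week knockout, 3.22, 1.21 and 4.57 in the 12-week wild type, 0.64, 3.80 and 2.80 in the 6-week knockout, and 2.81, 2.66 and 3.88 in the 6-week wild type. Arrays of one group lay up to 3.36 log2 units apart, and all groups overlapped their neighbours in age or genotype. The difference in the knockout, 12 minus 6 weeks, was 1.96 with a 95% confidence interval from -0.09 to 4.01 (adjusted p = 0.259). A change of several-fold in either direction between genotypes could not have been told from no change at this spread: the interval of the knockout minus wild type difference ran from -0.68 to 3.42 at 12 weeks and from -2.75 to 1.35 at 6 weeks.

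Bcl6 encodes a transcriptional repressor that in mouse liver is male-biased and binds many of the same sites as STAT5. Its probe, at chr16:23965160-23965219 on mm9, measured 4.76, 4.18 and 4.39 in the 12-week wild type, against 2.40, 3.00 and 1.59 in the 6-week wild type. The groups lay more than a log2 unit apart. Bcl6 was 4.32-fold higher at 12 weeks, by 2.11 ± 0.50 (SE, n = 3 per group, adjusted p = 0.0306). The size stayed between 1.74 and 2.45 when any one array was left out, but the adjusted p passed 0.05 without replicate 1 or 3 of the 6-week wild type or any array of the 12-week wild type, reaching 0.0999. With slide as a fixed block the difference was 2.43 (adjusted p = 0.118).

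In the knockout Bcl6 measured 4.48, 3.96 and 4.03 at 12 weeks, against 4.67, 2.70 and 2.79 at 6 weeks. Replicate 1 of the 6-week knockout thus had the level of the 12-week arrays. The age difference in the knockout was 0.77 ± 0.50 (adjusted p = 0.432), and without that array 1.41 (adjusted p = 0.0663). The same array had the lowest Cish level of the study, 0.64. Between genotypes Bcl6 differed by 1.06 at 6 weeks and -0.28 at 12 weeks, with neither called (adjusted p = 0.157 and 0.773). The 6-week difference was 0.41 without replicate 1 of the knockout. The test of the change between ages was not passed (-1.34 ± 0.71, adjusted p = 0.274).

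Cux2 encodes a homeobox repressor that is specific to female liver in adult mice. Its tested probe was dim, from -4.42 to -3.70 in the 12-week knockout, -3.98 to -3.54 in the 12-week wild type and -4.15 to -3.28 in the 6-week knockout, and well above background on 10 of the 12 arrays. In the 6-week wild type it measured -1.23, -3.77 and -3.27, so that replicate 1 stood more than 2 log2 units above all other arrays. The second Cux2 probe, which was not tested, was well above background on that array alone, at -1.92, with -6.89 to -6.11 on the other 11. The 6-week difference of -0.99 ± 0.54, knockout minus wild type, was not called (adjusted p = 0.209) and was -0.23 without that array.

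Sequences just before the start sites of these genes were searched for the letters TTCNNNGAA, the palindromic core that STAT5 proteins bind and that BCL6 sites resemble, in windows from 250 bases before to 50 bases after each start (RefSeq, GRCm38.p6). A palindrome matches both strands at once. Of the 10 genes, 9 had windows, 18 in all, and Socs2 had none in the table. The letters stood in 6 of the 18 windows, against 8.3% of all 32851 windows. These belonged to 4 of the genes, Igfals, Cish, Bcl6 and Prlr, against 9.55% of all 27025 genes. The members had more windows per gene than all genes did, which gives them more chances of a match. The 2 windows with several matches are shown because they belong to Cish and Bcl6, with Prlr as the receptor gene that changed with age. Capitals mark the matches, read 5′ to 3′ on the strand of the gene, at chr9:107296409-107296708 (plus strand), chr16:23981234-23981533 (minus strand) and chr15:10223656-10223955 (plus strand).
Cish: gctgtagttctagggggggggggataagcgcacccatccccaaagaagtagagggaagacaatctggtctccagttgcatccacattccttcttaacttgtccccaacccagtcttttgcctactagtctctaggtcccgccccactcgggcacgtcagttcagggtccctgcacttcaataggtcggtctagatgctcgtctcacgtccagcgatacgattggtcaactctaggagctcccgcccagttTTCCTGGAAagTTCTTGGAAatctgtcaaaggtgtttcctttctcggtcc
Bcl6: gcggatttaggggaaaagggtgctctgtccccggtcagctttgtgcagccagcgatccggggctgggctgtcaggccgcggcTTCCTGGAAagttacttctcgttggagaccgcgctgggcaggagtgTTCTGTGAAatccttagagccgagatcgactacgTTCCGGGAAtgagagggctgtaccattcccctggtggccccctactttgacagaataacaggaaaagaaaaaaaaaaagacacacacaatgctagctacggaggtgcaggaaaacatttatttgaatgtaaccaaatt
Prlr: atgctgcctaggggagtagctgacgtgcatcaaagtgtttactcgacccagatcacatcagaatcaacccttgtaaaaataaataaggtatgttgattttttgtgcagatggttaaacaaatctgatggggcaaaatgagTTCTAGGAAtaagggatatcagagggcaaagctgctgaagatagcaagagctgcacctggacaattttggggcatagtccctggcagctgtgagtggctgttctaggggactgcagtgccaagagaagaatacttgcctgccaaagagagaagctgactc
The Cish window held 2 matches, beginning on the start site itself and 11 bases after it, and the Bcl6 window held 3, which begin 168, 122 and 88 bases before the start. Windows with 2 or more matches made up 0.457% of all, and those with 3 or more 0.0335%. The Prlr match begins 110 bases before one of 3 start sites. A second Bcl6 window and 2 of 3 Igfals windows held 1 match each. No match was found in the windows of Ghr, Stat5a, Stat5b, Igf1 and Cux2. A match of letters is not a bound site, and binding was not measured here.

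Set beside the 22131 genes tested by their brightest probe, the counts of members called were close to the shares of these genes called in each comparison. The change of the genotype difference between ages was called for 1 of 10, Stat5b, against 9.88% of genes (4.65% as lower). Of the 19 tested probes, 6 were higher in the knockout at 6 weeks and 1 at 12 weeks, where 19.8% and 7.26% of all probes were called. With age 1 was higher and 2 were lower in the wild type, against 8.27% called, and 4 were lower in the knockout, against 6.26%. The change of the genotype difference was called for 3, against 9.6%. Groups did not overlap for 4 of the 10 genes between genotypes at 6 weeks and 4 at 12 weeks, against 47.8% and 27.3% of all genes. Between the ages this held for 6 genes in the wild type and 4 in the knockout, against 26% and 31.8%. The median difference of the 10 genes was 0.34 at 6 weeks and -0.17 at 12 weeks, knockout minus wild type, against 0.02 over all genes at each age. With age it was -0.24 in the knockout and 0.01 in the wild type, against -0.02 over all genes in each.

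The genes fell apart in how much livers of one group differed. The pooled within-group standard deviation was 1.28 for Cish, 0.74 for Cux2, 0.69 for Bcl6 and 0.51 for Socs2, which placed them above 99.8%, 98.1%, 97.5% and 93.9% of tested probes. It was 0.27 for Prlr and from 0.06 to 0.17 for Ghr, Stat5a, Stat5b, Igf1 and Igfals. The median of all tested probes was 0.18. For Cux2 and Bcl6 the value rested largely on 1 array each. Leaving out each array in turn, an alternative chosen after seeing the data, gave 0.35 for Cux2 without replicate 1 of the 6-week wild type and 0.44 for Bcl6 without replicate 1 of the 6-week knockout, above 83.9% and 90.3% of tested probes. The same omissions gave 1.08 to 1.36 for Cish and 0.43 to 0.55 for Socs2.

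**Figure D4:**
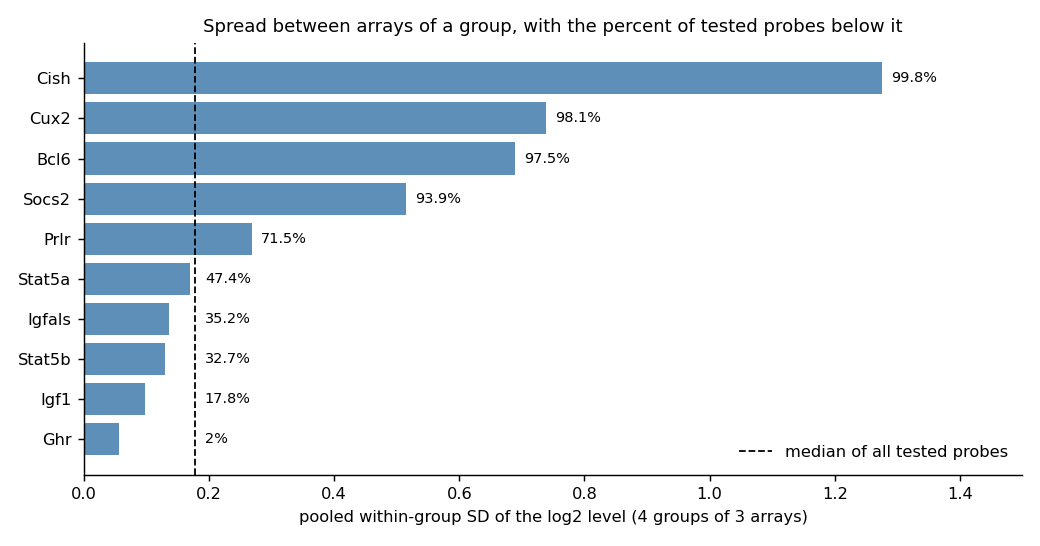
Pooled standard deviation of the log2 level within the 4 groups of 3 arrays (horizontal axis, starting at 0) for the brightest probe of each gene, with the percent of all tested probes that had a lower one. Cish at 1.28 and Ghr at 0.06 mark the ends, and the dashed line is the median of all tested probes, 0.18.

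For the members called in some comparison, the genes with the most similar levels over the 12 arrays were found by the root mean square difference of centred levels, over 13926 genes. They were Sarnp, Tmed2 and Cstf1 for Ghr (0.04 to 0.05), Myo1e, Zfp652 and Irf7 for Stat5b (0.08 to 0.09), Ccdc69, Hspb1 and Cdkn2b for Bcl6 (0.52 to 0.54) and Oip5, Vasn and Nbdy for Prlr (0.27 to 0.30). The standard deviation of the members themselves over the 12 arrays was 0.17, 0.20, 0.99 and 0.56 in the same order of genes.

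Of 23 other genes of the receptor's signalling machinery that were tested (kinases, adaptors, phosphatases and STATs), 3 were higher and 1 lower in the knockout at 6 weeks, where 20.3% of all genes were called. At 12 weeks 1 was higher and 2 lower, against 7.56% of all genes. Irs1 and Irs2, adaptors shared with the insulin receptor, had opposite signs at the 2 ages. Irs1 was higher in the knockout at 6 weeks by 0.66 ± 0.14 (adjusted p = 0.00923) and lower at 12 weeks by -0.54 ± 0.14 (adjusted p = 0.0401). Irs2 averaged 4.18 in the 6-week knockout and 3.40 in the 6-week wild type, and 3.08 in the 12-week knockout and 4.02 in the 12-week wild type (adjusted p = 0.0426 and 0.0402). For both the change of the genotype difference between ages passed, at -1.21 for Irs1 and -1.71 for Irs2 (adjusted p = 0.00484 and 0.0114, with slide as a fixed block 0.0291 and 0.0631). Grb2, an adaptor to the MAP kinase branch, was higher by 0.31 and Lepr, the leptin receptor gene, lower by -0.43 at 6 weeks. With slide as a fixed block none of these 4 passed at 6 weeks, with adjusted p values from 0.441 to 0.802. Pik3r1, a regulatory subunit of PI3-kinase, was higher in the 12-week knockout by 0.67 (adjusted p = 0.0462). With age, 1 of the 23 genes was lower in the knockout, against 6.52% of all genes called, and Irs2 fell by 1.10. In the wild type 2 were higher and 2 lower with age, against 8.54% of all genes called. There Irs1 and Stat3 rose by 0.86 and 0.51, and Pik3r1 and Gab1 fell by 0.99 and 0.51. In this wild type comparison slide and age largely separate the same arrays.

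Negative regulators outside the members were 13 SOCS, PIAS and related genes. By limma 0 passed between genotypes at either age, with 1 at an unadjusted p under 0.05 at each age, where 20.3% of all genes were called at 6 weeks and 7.56% at 12 weeks. Socs3, an inhibitor induced by STAT3 and by cytokines, was higher in the knockout at 12 than at 6 weeks, with means of 3.30 and 0.66, by 2.64 ± 0.52 (adjusted p = 0.0172), and Socs7 was higher in the 12-week than in the 6-week wild type by 0.51 (adjusted p = 0.0293).

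Of 18 genes of the IGF axis, 14 were tested. At 6 weeks 1 was higher and 5 were lower in the knockout, against 20.3% of all genes called in either direction, with a median of -0.47. Igf2bp3, an RNA-binding protein gene of fetal liver, was lower by -1.83 ± 0.18 (adjusted p = 0.000235), and well above background on 2 of the 3 knockout arrays. Igfbp4, a binding protein gene, and Insr, the insulin receptor gene, were lower by -0.53 and -0.52, and Htra1, a secreted protease gene, was higher by 0.78. Under slide as a fixed block Igf2bp3 kept its call (-1.61, adjusted p = 0.042) and the other 5 called genes did not. At 12 weeks 0 were higher and 2 lower, against 7.56% of all genes called. Igfbp1, a binding protein gene that insulin suppresses, averaged 3.83 in the 12-week knockout and 6.49 in the 12-week wild type (-2.65 ± 0.44, adjusted p = 0.0088, within slide 2 -2.50 and adjusted p = 0.0638). Igfbp2 was lower by -0.83 (adjusted p = 0.00848, within slide 2 adjusted p = 0.0347). With age, Igfbp1 fell by 4.28 ± 0.44 in the knockout (adjusted p = 0.000874). Igf2bp3 was at least 1.67-fold lower at 12 than at 6 weeks in the knockout and at least 5.70-fold lower in the wild type, as it was not well above background on any 12-week array.

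Among 21 transcription factors that act with STAT5 in liver, 3 were higher and 4 lower in the knockout at 6 weeks, against 20.3% of all genes called. The 4 with the smallest p were all lower: Tox, a female-biased HMG-box factor gene, by -2.73 ± 0.34 (adjusted p = 0.0008), Trim24 by -1.29, Nr1i3, the gene of the xenobiotic receptor CAR, by -1.07, and Cebpa, a hepatocyte differentiation factor gene, by -0.46. Under slide as a fixed block Tox and Nr1i3 kept their calls (adjusted p = 0.0296 and 0.0257). Tox and Trim24 are also on the list of female-biased genes and are counted again there. At 12 weeks 2 were higher and 1 lower, against 7.56% of all genes called. Foxa3, a forkhead factor gene, was lower by -0.53, also within slide 2 (adjusted p = 0.0457), and Cebpa was higher by 0.32 (adjusted p = 0.0353, within slide 2 adjusted p = 0.108). Tox fell by 2.03 with age in the wild type (adjusted p = 0.00744).

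Sex-biased liver genes, the best-known output of the growth hormone pattern, were counted beside the pathway. These lists were chosen with earlier results of these data known, so their counts are descriptive. They also count close relatives, such as Cyp2b9 and Cyp2b13, as separate genes. Of 27 male-biased genes tested, 21 were higher and 0 lower in the knockout at 6 weeks, and 0 higher and 2 lower at 12 weeks. Of 29 female-biased genes, 1 was higher and 26 lower at 6 weeks, and 2 higher and 4 lower at 12 weeks. Over all genes, 20.3% were called between the genotypes at 6 weeks (11.7% as higher) and 7.56% at 12 weeks. With age, 1 male-biased gene was higher and 5 lower in the knockout, and 16 were higher and 0 lower in the wild type. The female-biased genes numbered 3 higher and 1 lower with age in the knockout, and 0 higher and 20 lower in the wild type. The shares of all genes called with age were 6.52% in the knockout and 8.54% in the wild type. In the wild type age comparison, slide and age largely separate the same arrays. Over all probes, its 2465 calls became 905 with slide as a fixed block. The medians at 6 weeks were 0.97 for the male-biased and -2.25 for the female-biased list, or 0.95 and -2.03 with genes below background in one group set at their bound. The median over all genes was 0.02. The 6-week comparisons share the wild type arrays of 6 weeks with the wild type age comparison, so the counts of the 2 are not independent.

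Cyp7b1, a male-biased oxysterol hydroxylase gene, averaged 6.82 in the 12-week wild type, 7.19 in the 6-week knockout and 3.59 in the 6-week wild type. It was higher in the 6-week knockout than in the 6-week wild type by 3.60 ± 0.21 and with slide as a fixed block by 4.23 (adjusted p = 1.27e-05 and 0.000722). Cyp4a12b, a male-biased fatty acid hydroxylase gene, was higher by 2.45 ± 0.19 (2.49 with the block), C6, a complement gene, by 3.72 and Elovl3, a fatty acid elongase gene, by 6.17. Among the female-biased genes Hao2, an oxidase gene, was at least 13.9-fold lower and Cyp2b13, a cytochrome P450 gene, at least 157-fold lower, as neither was well above background on any array of the 6-week knockout. In these 6-week differences and list counts the slide cannot be told apart from the genotype. Over all probes, 5908 calls at 6 weeks became 694 with slide as a fixed block. Cyp39a1, a female-biased hydroxylase gene, averaged 1.82 in the 12-week knockout, 2.47 in the 12-week wild type, 2.50 in the 6-week knockout and 3.91 in the 6-week wild type. It was lower in the knockout at both ages, by -0.65 ± 0.12 at 12 weeks and -1.42 ± 0.12 at 6 weeks (adjusted p = 0.0117 and 0.000111).

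**Figure D5:**
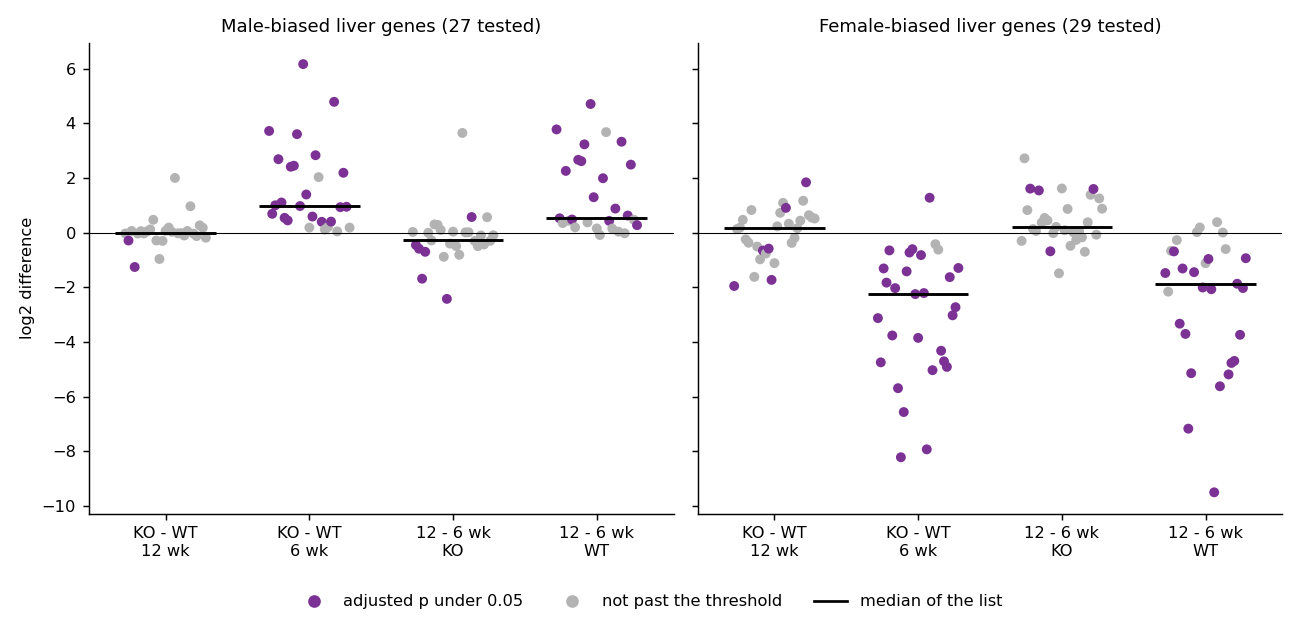
Log2 difference (vertical axis) of 27 male-biased and 29 female-biased liver genes in 4 comparisons, 1 point per gene, purple where the adjusted p is under 0.05, with the list's median as a line; fitted values are drawn, also for genes below background in one group. At 6 weeks 21 male-biased genes are higher and 26 female-biased genes lower in the knockout. In the 12-week against the 6-week wild type 16 male-biased genes are higher and 20 female-biased genes lower. Both comparisons use the 6-week wild type arrays, all on slide 1, and the lists were chosen with earlier results of these data known.

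Several other measures moved with the groups. Clock genes were among them: Dbp, a clock output gene, averaged 6.80 in the 12-week knockout, 5.57 in the 12-week wild type, 0.11 in the 6-week knockout and 6.93 in the 6-week wild type. Arntl, a core clock activator gene, averaged -1.07, 0.08, 2.14 and -3.02 in the same order of groups. Among 14 genes of the clock, the 6-week knockout had 4 higher and 9 lower than wild type, where 20.3% of all genes were called. The 12-week knockout had 6 higher and 0 lower, against 7.56% of all genes. The time of day is not labelled, and the part of these shifts in the differences of Ghr, Stat5b, Bcl6, Prlr and the sex-biased genes was not tested.

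Cell type markers were counted between the genotypes, where 20.3% of all genes were called at 6 weeks and 7.56% at 12 weeks. Markers of hepatocytes, 7 of 7 tested, had a mean level of 8.51 to 8.75 on the arrays of the 6-week knockout and 8.40 to 8.52 on those of the 6-week wild type, with 2 of 7 higher. Erythroid markers, 4 of 6 tested, were higher for 3 and lower for 1 at 6 weeks, with mean levels of 1.86 to 2.20 in the knockout and 1.49 to 1.71 in the wild type. At 12 weeks 2 of the 4 were higher and 0 lower, with mean levels of 2.09 to 2.55 in the knockout and 1.41 to 1.70 in the wild type. The arrays of the genotypes did not overlap in this mean at either age. Of 7 NK and T cell markers 4 were tested. At 12 weeks 3 of these were lower, with means of -0.36 to 0.06 in the knockout and 0.75 to 1.10 in the wild type. At 6 weeks 1 was lower, with means of -0.07 to 0.30 in the knockout and 0.52 to 0.71 in the wild type, which did not overlap either. Of 3 tested neutrophil and monocyte markers 2 were higher in the knockout at 6 weeks, with means of -1.86 to -1.40 in the knockout and -1.99 to -1.97 in the wild type, and 0 passed at 12 weeks, with 1 at an unadjusted p under 0.05. Of 6 Kupffer cell and macrophage markers 0 passed at either age by limma, with 4 at an unadjusted p under 0.05 at 12 weeks and 0 at 6 weeks. Of 4 adipocyte markers 1 was bright enough to test. It measured -0.03 to 0.58 in the 12-week knockout and -3.44 to -2.24 in the 12-week wild type and was not called.

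Markers were also compared between the ages, where 8.54% of all genes were called in the wild type and 6.52% in the knockout. In the wild type, where Bcl6 was higher at 12 weeks, 2 of the 3 neutrophil and monocyte markers were higher at 12 weeks, with means of -1.46 to -0.84 at 12 weeks and -1.99 to -1.97 at 6 weeks. The Kupffer cell and macrophage markers had means of 3.16 to 3.52 in the 12-week and 2.79 to 3.07 in the 6-week wild type, where 0 of 6 passed by limma and 2 had an unadjusted p under 0.05. In the knockout, where Prlr was lower at 12 weeks, 1 of 7 hepatocyte markers was lower, with means of 8.32 to 8.45 at 12 weeks and 8.51 to 8.75 at 6 weeks. There 0 of 3 neutrophil and monocyte markers and 0 of 6 Kupffer cell and macrophage markers passed by limma, with 0 of either list at an unadjusted p under 0.05. The part of these cell types in the results was not tested.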

How the data were processed

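Total RNA of 12 mouse livers was hybridised to 1-colour Agilent arrays. Per the file headers and the submitters' processing notes, the authors' scanner software was Agilent Feature Extraction 10.7.3.1. The values used are its deposited spot intensity (processed signal). The authors' deposited value table of the same arrays served as an alternative: set against the scanner files it held the same intensity on a linear scale to within 0.497%, uncentred, with array medians of 21.6 to 29.5.

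Control spots were left out, spots of a probe averaged, and log2 levels set against each array's 75th percentile. Probes well above background on all 3 arrays of a group (53.53% of 55681) were fitted with limma 3.58.1 in R 4.3.3, with 4 group means over 12 arrays and 8 residual degrees of freedom. P-values were adjusted by Benjamini-Hochberg over all tested probes (threshold 0.05). The fit was tested on simulated data. Alternatives were quantile normalization, normexp background, no filter, a stricter filter, 1 probe per gene, slide as a block, the replicate number as a block, only the groups compared, and leaving out each array. Positions are those of the files (mm9); exon and UTR positions were not analysed here. The 10 genes and all gene lists were chosen with earlier results of these data known. Named were all members and up to 4 genes per list with the smallest p in a comparison, with Il18, Dbp, Arntl and the sex chromosome genes. Some results are not reported here.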

Additional observations from a re-analysis of the deposited data

Results flagged for a closer look

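The genotype difference changed between the ages for 3 probes of 2 genes, by the test of the difference itself. For the second Ghr probe, the knockout minus wild type difference at 12 weeks minus that at 6 weeks was -0.39. For Stat5b it was -0.62 by the brightest probe and -0.63 by the second. The adjusted p values were 0.0173, 0.0321 and 0.0181, and with slide as a fixed block 0.0501, 0.126 and 0.0447. For Ghr, the brightest probe gave -0.23 in the same test and did not pass. The 3 arrays of the 6-week wild type, which enter each of these differences, lay on slide 1, whereas slide 2 carried every knockout array. The part of the slide in these differences was not tested beyond the block.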

How the results depend on the processing

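The members called at 6 weeks (2 as reported) numbered 1 without a filter on dim probes, 0 with slide as a fixed block, 1 with slide as a random block and 1 to 3 when 1 array was left out. At 12 weeks (0 as reported) leaving out 1 array gave 0 to 1. With age in the wild type (1 as reported) quantile normalization and normexp background gave 3 each, the filter on all 12 arrays and 1 probe per gene gave 2 each, and no filter, slide as a fixed or random block, slide 1 alone and the fit to only the groups compared gave 0 each, with 0 to 2 when 1 array was left out. With age in the knockout it was 1 in every alternative run. The change of the genotype difference (1 as reported) gave 0 without a filter, with slide as a fixed or random block and with the replicate block, and 0 to 1 when 1 array was left out. The cause was not tested. Of the results for single probes under all alternatives, 1909 kept their direction and side of the threshold, 92 were no longer past it, 40 newly passed and 37 changed sign. The sign changes belonged to 13 differences, called neither as reported nor where the sign changed (lowest adjusted p = 0.324). At 6 weeks the fixed and random slide block gave 0.33 and 0.071 for the Igf1 probe 15.12 kb below the brightest (-0.07 as reported) and -0.36 and -0.074 for the brightest Prlr probe (0.08). At 12 weeks the second Prlr probe (0.02) gave -0.12 with the fixed block and within slide 2, -0.028 with the random block, -0.024 with quantile normalization and -0.018 with normexp, which gave 0.037 for Cux2 (-0.29). With age in the wild type the fixed block and slide 1 alone gave -0.016 for a Socs2 probe (0.29) and 0.10 for Cish (-0.12). The changed genotype difference was 0.050 and 0.029 for the brightest Igf1 probe (-0.01) and the one overlapping it (-0.05) under quantile normalization. Without 1 array the ranges that crossed 0 were -1.39 to 0.19 for Cish and -0.14 to 0.25 for Prlr at 6 weeks, -0.12 to 0.18 for the second Prlr probe at 12 weeks, -0.90 to 0.78 for Cish, -0.084 to 0.17 for Igf1 and -0.069 to 0.47 and -0.071 to 0.53 for 2 Socs2 probes with age in the wild type, and -0.064 to 1.21 for Cux2, -0.074 to 0.13 for Igfals and -0.060 to 0.068 and -0.12 to 0.026 for 2 Igf1 probes in the changed genotype difference.

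Over all probes, the 5908 calls at 6 weeks became 3638 without a filter, 694 with slide as a fixed and 1658 with slide as a random block, and 3252 to 7717 when 1 array was left out. The 2164 calls at 12 weeks became 776 without a filter, 827 within slide 2, 401 with only the groups compared and as few as 754 without 1 array. The 2465 age calls in the wild type became 1331, 905 and 1335 with no filter and the fixed and random slide block, 0 within slide 1, 413 with only the groups compared, and 1139 to 4452 without 1 array. The 1866 age calls in the knockout became 751 without a filter and as few as 714 without 1 array. The 2862 calls of the changed genotype difference became 1321 without a filter and 1815 with the fixed slide block, and as few as 1893 without 1 array.

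Replicate numbers did not pair the arrays: deviations from group means correlated at -0.0734 to 0.158 between arrays of 1 number, with 2 of 18 pairs over 0.1, and at -0.185 to 0.168 between different numbers. With the replicate block the changed genotype difference of the brightest Stat5b probe had an adjusted p of 0.0531. Dim signal limits Cux2, and wide spread between livers limits Cish, Bcl6 and Socs2.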

Other observations

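Replicate 1 of the 6-week wild type was the array on which both Cux2 probes stood apart, at -1.23 and -1.92, while its Prlr level of 3.48 was the highest of the 6-week wild type and its Socs2 level of 1.17 the lowest. Replicate 1 of the 6-week knockout had the lowest Cish level, 0.64, and a Bcl6 level of 4.67. These are values of single arrays.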
